A study of Homo sapiens with 2 samples.

Results

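The glycolysis and hypoxia response genes described here are 35 genes of the 61487 features counted, taken by symbol from a list of names drawn up with earlier results of these data known. They comprise 17 glycolytic enzymes from hexokinase to lactate dehydrogenase, 15 genes known to be induced by hypoxia-inducible factor (HIF), and 3 others: the HIF subunit HIF1A, the pyruvate dehydrogenase kinase PDK3 and the monocarboxylate transporter SLC16A1. The study asked what the forkhead transcription factor FOXA2 contributes to the making of human serotonin neurons. Human embryonic stem cells of the WA09 line, also called H9, with a TPH2-EGFP knockin were differentiated for 42 days, and EGFP-positive cells were sorted and profiled by droplet single-cell RNA sequencing of transcript 3' ends. There was 1 library of cells labelled wild type (WT) and 1 of cells labelled FOXA2 knockout (FKO), both with the reporter knockin. The knockout was made by end-joining insertions or deletions, and the knockout reporter line had 1 clone as its background, so clone, library and genotype cannot be told apart. For a staining at day 42, the study used a low dose of the hedgehog agonist purmorphamine for WT cells and a high dose for FKO cells. Whether the sequenced cells differed in the same way was not established here.

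The library labelled WT held 123064653 unique molecular identifiers (UMIs, single captured transcripts) in 11052 cell barcodes, and the library labelled FKO held 70588747 in 8806. Cells were kept with at least 1000 UMIs, at least 500 genes, at most 10% of UMIs from mitochondrially encoded (MT) genes and no doublet mark. This left 5749 cells labelled WT, with a median of 12460 UMIs and an MT share of 7.82%, and 6978 cells labelled FKO, with 6927 UMIs and 5.33%. The MT limit removed 39.8% of the otherwise usable cells labelled WT, against 11.8% in the library labelled FKO. The libraries shared 21 barcode sequences as deposited and 5 among the kept cells. Levels are UMIs pooled over the kept cells of a library and scaled to CPM. UMIs of 3' ends are not scaled by gene length, so levels of different genes are given without a length correction; whether intronic reads were counted was not stated.

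FOXA2 (ENSG00000125798), the targeted gene, went against the label: it had 334 UMIs (4.35 CPM) in the library labelled WT, against 1265 UMIs (21.8 CPM) in the one labelled FKO. Counts at the 3' end do not read a small edit in the coding sequence, so this level checks nothing about the knockout itself. A swap of the labels was not tested, so the libraries are named by their labels throughout, and every direction below runs from one labelled library to the other. Of other floor plate genes, SHH (5.91 and 2.75 CPM) and CORIN (3.36 and 0.794 CPM) ran the other way from FOXA2 but were under 10 CPM, and NTN1 had 5.30 and 12.2 CPM. All 9 serotonergic markers were detected in both libraries, summing to 2928 CPM in the library labelled WT, against 2466 CPM in the one labelled FKO. The lower sum rested on FEV, whereas GATA2, GATA3 (595 and 817 CPM), SLC6A4, SLC18A2 and LMX1B had more CPM in the library labelled FKO. By the 1.5-fold call explained below, 4 of them were lower in the library labelled FKO: FEV, the most abundant (1584 and 908 CPM), TPH2 (198 and 161 CPM), DDC (269 and 225 CPM) and MAOB (184 and 148 CPM). SLC18A2 (19.2 and 50.6 CPM) and LMX1B (32.9 and 71.4 CPM) were higher. By that call, 23.4% of all genes were lower and 17.9% higher. The balance turned with uncentred log2 ratios, by which 8.17% of all genes were lower and 43.6% higher. FEV (-0.80) was then lower, while TPH2 (-0.30), DDC (-0.26) and MAOB (-0.32) were within 1.5-fold. GATA2 (0.79), SLC6A4 (1.05), SLC18A2 (1.40) and LMX1B (1.12) were then higher. The 7 pan-neuronal markers, led by STMN2, summed to 8027 and 11906 CPM. The 6 mesenchymal markers summed to 37.2 CPM in the library labelled WT, against 229 CPM in the one labelled FKO. The 4 astrocyte markers summed to 8.94 and 42.5 CPM, and the 4 oligodendrocyte lineage markers to 1.37 and 13.1 CPM. The most abundant of each list were COL1A2, S100B and SOX10 in the library labelled FKO. In the one labelled WT they were LUM, SLC1A3 and OLIG2, with SOX10 at 0. The part of these other cells in the ratios below was not tested. With 1 library per label there is no replicate check and no test. Intervals are 95% intervals from exact Poisson, exact binomial or exact conditional methods, and they cover counting error only.

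Glycolysis splits glucose into pyruvate in the cytosol and yields ATP without oxygen; lactate dehydrogenase then turns pyruvate into lactate and restores the NAD+ that the pathway consumes. When oxygen is low, prolyl hydroxylases of the EGLN family stop marking HIF alpha subunits for destruction, and the stabilised factor raises the transcription of glucose transporters, glycolytic enzymes, mitophagy receptors and angiogenic signals. Neurons rely mainly on oxidative metabolism, and several steps have isozymes whose balance shifts as progenitors become neurons, with ENO2 the neuronal form of enolase.

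Transcripts of many glycolytic enzymes were lower in the library labelled FKO, while the median HIF target lay near the middle of all genes, though not among cells with at most 5% MT, where it was at -0.57 with 5 of the same 11 targets lower (-0.61 and 6 of 12 with EGLN3, which reached 10 CPM there on the WT side alone), or with 5 to 7.5% MT in both libraries (-0.44, or -0.48 without PFKFB4, which was under 10 CPM there). Across the 9676 genes with at least 10 CPM in either library, the median log2 ratio, FKO over WT, was 0.47, so ratios below are given relative to that median, and a gene is called when it lies at least 1.5-fold above or below it. Of the 17 enzymes, 16 reached 10 CPM; 9 of these were lower and 0 higher, where 23.4% of all genes were lower and 17.9% higher. Their median was -1.06 (-0.58 before the median of all genes was taken off). Of the 15 HIF targets, 11 reached 10 CPM; 2 were lower and 0 higher, with a median of 0.07 (0.55 uncentred). The 3 other genes were all within 1.5-fold. Uncentred ratios gave 3 enzymes higher and 8 lower, 4 HIF targets higher and 2 lower, and 1 of the other genes higher, against 43.6% of all genes higher and 8.17% lower. A gene that reached 10 CPM in only 1 library was compared because it was high there, which holds for ALDOA and SLC16A3 on the WT side and for PFKFB3, PFKFB4, EGLN1 and SLC16A1 on the FKO side. At most 5% MT, the 340 cells labelled WT and the 2888 labelled FKO also differed in their mix of clusters (described below). The part of that mix in the HIF target median there was not tested.

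**Figure D1:**
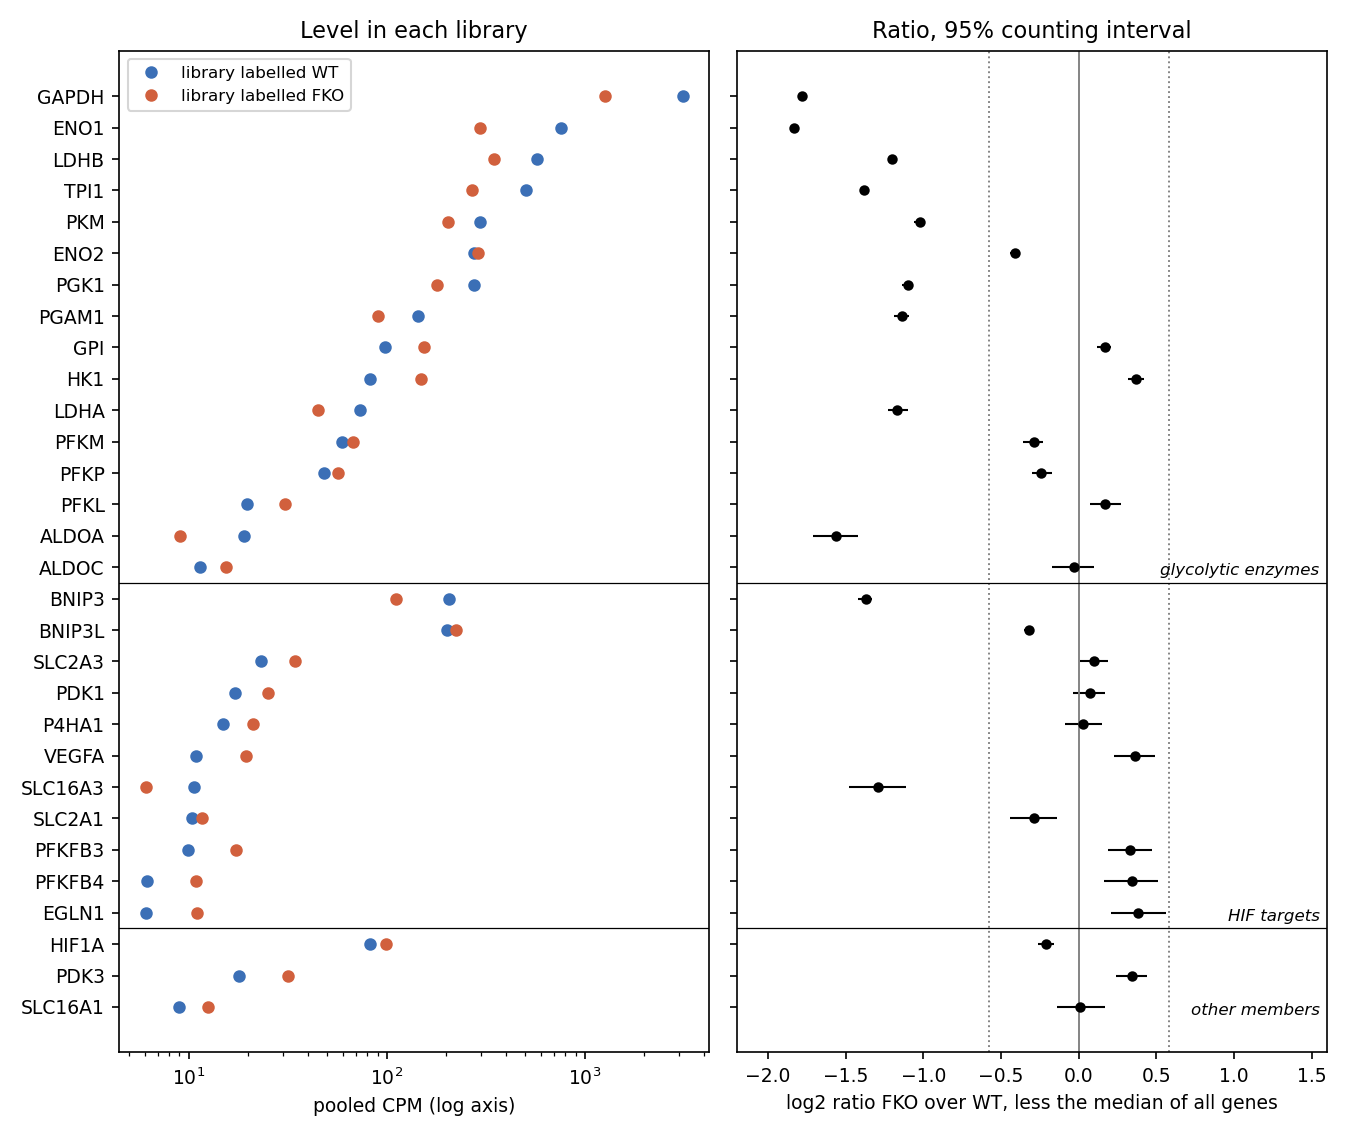
Pooled CPM of the members with at least 10 CPM in either library (left, log axis) and their log2 ratio, FKO over WT, minus the all-gene median (right), with 95% counting intervals and dotted lines at 1.5-fold. GAPDH is at 3125 and 1264 CPM, and 9 enzymes and 2 HIF targets lie left of the lower line.

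Over all kept cells the first steps of the pathway lay within 1.5-fold of the all-gene median. Before centring, HK1 (0.85), GPI (0.65) and PFKL (0.64) were past 1.5-fold higher in the library labelled FKO. Among cells with at most 5% MT HK1 was higher (0.66) and HK2, which reached 10 CPM there, was lower (15.7 and 11.9 CPM, -0.87). PFKP was lower (-0.79) with 5 to 7.5% MT in both libraries. Some ratios also passed 1.5-fold against the all-gene median of a cluster (clusters are described below). PFKP was at -1.03 in cluster 2 (44.1 and 28.7 CPM) and PFKL at -0.60 in cluster 7, on 11 and 16 UMIs. HK1 was at 1.16, 0.86 and 0.75 in clusters 6, 7 and 8. HK2 ran from -1.63 in cluster 2 to 1.28 in cluster 6, under 10 CPM in both. HK1, the main hexokinase of neurons, which traps glucose as glucose 6-phosphate, had 82.7 CPM in the library labelled WT, against 149 CPM in the one labelled FKO, a centred log2 ratio of 0.37. GPI, which converts glucose 6-phosphate to fructose 6-phosphate, had 98.3 and 154 CPM (0.17). Phosphofructokinase commits the sugar to breakdown and is encoded by a muscle-type, a platelet-type and a liver-type gene. PFKM had 59.4 and 67.6 CPM, PFKP 48.4 and 57.0 CPM, and PFKL 19.7 and 30.8 CPM. Their centred ratios were -0.29, -0.24 and 0.17, and the first and second of these were above 0 before centring, at 0.19 and 0.23. HK2, the inducible hexokinase, was under 10 CPM in both libraries over all kept cells, with 336 UMIs (4.37 CPM) and 377 UMIs (6.51 CPM).

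All 9 enzymes that were called lower act from the aldolase step onward, a grouping made after the values were seen. ALDOA, the ubiquitous aldolase that splits fructose bisphosphate, had 19.1 CPM in the library labelled WT, against 9.03 CPM in the one labelled FKO, 2.94-fold below the median ratio. TPI1, which interconverts the triose phosphates, had 507 and 271 CPM (2.59-fold below). GAPDH (ENSG00000111640), which oxidises glyceraldehyde 3-phosphate and reduces NAD+, was the most abundant member, with 240043 UMIs (3125 CPM) and 73208 UMIs (1264 CPM). The latter is 3.44-fold below the median ratio, with an uncentred log2 ratio of -1.31 (interval -1.32 to -1.29). PGK1, the first enzyme to make ATP, had 275 CPM in the library labelled WT, against 179 CPM in the one labelled FKO, and PGAM1, the next in line, had 144 and 91.0 CPM. Their centred log2 ratios were -1.10 and -1.14.

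ENO1 (ENSG00000074800), the general enolase, had the lowest ratio of the enzymes compared: 58440 UMIs (761 CPM) in the library labelled WT, against 17210 UMIs (297 CPM) in the one labelled FKO, 3.56-fold below the median. PKM, which makes pyruvate and a further ATP, had 297 and 204 CPM (-1.02). The lactate dehydrogenase subunits were both lower: LDHA, the form favouring lactate production, had 73.2 and 45.1 CPM (-1.17), and LDHB, the form that prevails in neurons, had 577 and 349 CPM (-1.20). The exceptions among the later steps were the neural isozymes. ENO2, the neuronal enolase, had 276 CPM in the library labelled WT, against 288 CPM in the one labelled FKO, a ratio of 0.06 that became -0.41 after centring. ALDOC, the brain aldolase, had 11.4 and 15.5 CPM (-0.03), but it was lower among cells with at most 5% MT (21.5 and 18.6 CPM, -0.68). Against the all-gene median of the cluster it was at -1.35 in cluster 5 (described below) and at -1.19 in cluster 8, there on 10 and 3 UMIs.

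Some of the enzyme genes are neighbours. GAPDH (chr12:6533927-6538374), TPI1 (chr12:6867119-6870948) and ENO2 (chr12:6913745-6923698, GRCh38) lie close together on chromosome 12, and the former pair were lower while ENO2 lay within 1.5-fold.

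Counts can be shared with near-identical copies, so the members with processed pseudogenes were checked. The 65 named GAPDH pseudogenes together had 296 UMIs in the library labelled WT, where the gene had 240043, and 316 in the one labelled FKO, where it had 73208. ENO1 pseudogenes had 51 and 85 UMIs and PGAM1 pseudogenes 27 and 112, against 58440 and 17210, and 11065 and 5271, for the genes. A split of reads between gene and copy before counting cannot be seen in these files. ALDOA shares exon sequence on its strand with the gene model ENSG00000285043, which had 16 and 15 UMIs, and PGK1 with ATP7A, which had 618 and 834, so the counts of both are less certain.

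Summed over the 17 genes, enzyme transcripts came to 489926 UMIs (6379 CPM) in the library labelled WT, against 201440 UMIs (3479 CPM) in the one labelled FKO, an uncentred log2 ratio of -0.87 (-0.88 to -0.87). GAPDH made up 49.0% of the first sum and 36.3% of the second. Without it the sums were 3253 and 2214 CPM, an uncentred ratio of -0.56. The difference was spread over the cells: the median cell labelled WT had 0.621% of its non-MT UMIs from the enzymes and the median cell labelled FKO 0.331%, and the 10th percentile of the former, 0.410%, lay above the 75th percentile of the latter, 0.408%.

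HIF recognises a short core sequence, ACGTG or GCGTG, in the promoters of its targets. In a table of RefSeq promoters on GRCh38.p14, the 250 bases before the transcript start were available for 17 enzymes, 11 HIF targets and 2 other members; NDRG1, BNIP3L, SLC2A3, VEGFA and SLC16A1 had none. Both cores were searched on both strands, and a CACGTG, which reads the same on either strand, was counted once on each. ACGTG occurred in 18.5% of the 35116 windows of all genes and in at least 1 window of 30.1% of the 7722 compared genes with a window. It occurred in 11 of the 17 enzymes and 7 of the 11 HIF targets. GCGTG occurred in 32.2% of all windows and 55.8% of compared genes, in 9 of the 17 enzymes and 5 of the 11 HIF targets. A match describes the letters of the window and says nothing about binding in these cells. The sequences shown are from members lower in the library labelled FKO whose window holds a stretch outside annotated exons, 5' to 3', with the cores in capitals: GAPDH (chr12:6535142-6535263, plus strand), TPI1 (chr12:6867855-6868099, plus strand), PGK1 (chrX:78103998-78104173, plus strand), LDHB (chr12:21657972-21658092, minus strand), which has neither core, and BNIP3 (chr10:131982014-131982173, minus strand), a HIF target described below.
GAPDH: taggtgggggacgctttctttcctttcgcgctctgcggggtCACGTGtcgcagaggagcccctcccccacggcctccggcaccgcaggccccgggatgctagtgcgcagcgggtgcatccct
TPI1: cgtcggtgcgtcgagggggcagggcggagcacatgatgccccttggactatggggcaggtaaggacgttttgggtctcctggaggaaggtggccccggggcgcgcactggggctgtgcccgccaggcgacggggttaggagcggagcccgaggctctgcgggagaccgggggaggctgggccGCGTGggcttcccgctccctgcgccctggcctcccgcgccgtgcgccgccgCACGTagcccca
PGK1: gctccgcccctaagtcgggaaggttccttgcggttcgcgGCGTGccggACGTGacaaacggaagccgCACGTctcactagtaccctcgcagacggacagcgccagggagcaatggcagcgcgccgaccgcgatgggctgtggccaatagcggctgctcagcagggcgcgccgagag
LDHB: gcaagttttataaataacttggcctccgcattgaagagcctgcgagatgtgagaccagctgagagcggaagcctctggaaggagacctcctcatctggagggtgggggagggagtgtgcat
BNIP3: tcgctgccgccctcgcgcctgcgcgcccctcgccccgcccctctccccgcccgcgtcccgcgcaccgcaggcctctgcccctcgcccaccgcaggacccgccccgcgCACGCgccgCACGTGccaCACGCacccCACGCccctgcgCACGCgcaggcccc

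The GAPDH stretch holds a single CACGTG, which gives its 2 counts of ACGTG. The PGK1 stretch holds 2 ACGTG, on opposite strands, and 1 GCGTG, and the TPI1 stretch holds 1 of each. The BNIP3 stretch holds a CACGTG and 4 copies of GCGTG, all on the other strand.

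Pooled isozyme balance differed between the libraries for enolase and aldolase, and less for lactate dehydrogenase and hexokinase. ENO1 made up 73.4% (73.1 to 73.7) of ENO1 and ENO2 UMIs in the library labelled WT, against 50.8% (50.3 to 51.4) in the one labelled FKO. ALDOA made up 62.7% of aldolase A and C UMIs in the former and 36.8% (34.3 to 39.3) in the latter, but the intervals overlapped in clusters 3, 5 and 8, at 35.2% and 32.0% in cluster 5. LDHA, by contrast, made up 11.3% and 11.4% of lactate dehydrogenase UMIs, with overlapping intervals, since both subunits were lower by like amounts. HK2 made up 5.02% and 4.19% of hexokinase UMIs, and the intervals of 4.51 to 5.58 and 3.78 to 4.62 overlap. In cluster 2 both shares were lower with the FKO label, LDHA at 11.3% (10.6 to 12.1) and 7.70% (6.84 to 8.63) and HK2 at 6.62% (5.16 to 8.35) and 1.72% (1.07 to 2.62). In cluster 6 LDHA made up 9.10% and 16.5%. Of phosphofructokinase UMIs, PFKM made up 46.6% and 43.5%, PFKP 38.0% and 36.7%, and PFKL 15.5% and 19.8%. These shares are ratios within a library and do not depend on the scaling to CPM.

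Among the HIF targets, the mitophagy receptor BNIP3 (ENSG00000176171) was lower. It had 15871 UMIs (207 CPM) in the library labelled WT, against 6443 UMIs (111 CPM) in the one labelled FKO, 2.58-fold below the median ratio. Its relative BNIP3L, which serves the same process, had 203 and 225 CPM (-0.32, or 0.15 before centring). BNIP3 thus made up 50.5% (49.9 to 51.0) of the pair's UMIs in the library labelled WT, against 33.1% (32.4 to 33.7) in the one labelled FKO. SLC16A3, the transporter that exports lactate from glycolytic cells, was the other target called lower, with 823 UMIs (10.7 CPM) and 353 UMIs (6.10 CPM), a centred ratio of -1.29. It was at -1.98 among cells with at most 5% MT and at -2.78 with 5 to 7.5% MT in both libraries.

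Over all kept cells the glucose transporters lay within 1.5-fold. SLC2A1 was at -0.65 among cells with at most 5% MT and at -0.81 with 5 to 7.5% MT in both libraries. SLC2A3 was at 0.94 against the all-gene median of cluster 7, on 9 and 38 UMIs. SLC2A1, the transporter of barrier cells and progenitors, had 10.4 and 11.7 CPM (-0.29, or 0.18 uncentred), and SLC2A3, the high-affinity neuronal transporter, had 23.3 and 34.6 CPM (0.10). SLC2A3 made up 69.2% (67.4 to 71.0) of the pair in the library labelled WT, against 74.7% (73.0 to 76.3) in the one labelled FKO. Within clusters these intervals overlapped in all but cluster 3, which had 72.0% (67.3 to 76.4) and 82.1% (76.5 to 86.7). PFKFB3 and PFKFB4, which set the level of the activator of phosphofructokinase, had 9.92 and 17.3 CPM, and 6.20 and 10.9 CPM. Their centred ratios of 0.33 and 0.34 did not reach 1.5-fold, whereas the uncentred ones, 0.80 and 0.82, did. PDK1, which holds pyruvate dehydrogenase inactive, had 17.2 and 25.1 CPM (0.07), and its relative PDK3 had 18.0 and 31.7 CPM (0.34, or 0.82 uncentred).

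VEGFA, the angiogenic growth factor, had 10.9 CPM in the library labelled WT, against 19.5 CPM in the one labelled FKO (0.36, or 0.84 uncentred), and P4HA1, a collagen prolyl hydroxylase, had 14.9 and 21.2 CPM (0.03). Among cells with at most 5% MT both were lower, at -0.65 and -0.86, as was SLC16A1 (-0.68). The mix of cells differed there. Clusters 6 and 8 held 12.1% and 14.4% of the 340 cells labelled WT, against 2.84% and 1.56% of the 2888 labelled FKO. In both libraries P4HA1 and SLC16A1 were highest in cluster 6 and VEGFA in cluster 8. The part of this mix in these ratios was not tested. Against the all-gene median of the cluster, VEGFA ran from -1.05 in cluster 2 to 1.36 in cluster 7, there on 6 and 34 UMIs. P4HA1 ran from -0.89 in cluster 2 to 0.89 in cluster 6. EGLN1, the main oxygen-sensing hydroxylase acting on HIF1A, had 6.12 and 11 CPM (0.38, or 0.85 uncentred). HIF1A itself had 82.2 and 99.1 CPM (-0.21, or 0.27 uncentred), and the lactate and pyruvate carrier SLC16A1 had 8.97 and 12.6 CPM (0.01). HIF1A is controlled mostly through its protein, which was not measured. Another hydroxylase, EGLN3, was under 10 CPM over all kept cells, with 622 UMIs (8.10 CPM) and 292 UMIs (5.04 CPM). NDRG1, a stress-induced gene, had 167 and 212 UMIs, and ADM, which encodes adrenomedullin, had 14 and 21. CA9, a carbonic anhydrase that is often read as a hypoxia marker, had 1 UMI in the library labelled WT, against 2 in the one labelled FKO, both under the floor of 3 counts, so no ratio is given. The 15 targets summed to 529.7 CPM in the library labelled WT, against 503 CPM in the one labelled FKO, an uncentred ratio of -0.07 (-0.10 to -0.05) that became -0.55 after centring, with BNIP3 39.0% of the first sum and 22.1% of the second.

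Related genes were read in the same way, against the shares of all genes given above (23.4% lower and 17.9% higher, or 8.17% and 43.6% uncentred). MIR210HG, TMEM45A and EGR1 reached 10 CPM only in the library labelled WT, and ARNT, SESN2, ADPGK and TRIB3 only in the one labelled FKO, so each was compared because it was high there. Of 20 genes for pyruvate entry and the tricarboxylic acid (TCA) cycle, all above 10 CPM, 11 were lower and 0 higher, with a median of -0.65; uncentred, 2 were lower and 1 higher. Citrate synthase CS had 27.5 and 50.1 CPM (0.39) and PDHX 25.5 and 35.5 CPM (0.00), while the succinate dehydrogenase subunit SDHB had 46.8 and 24.8 CPM (-1.39) and malate dehydrogenase MDH2 216 and 117 CPM (-1.36). Of 7 genes of the pentose phosphate pathway, which branches from glucose 6-phosphate, 3 were lower and 0 higher, with a median of -0.56, and uncentred 1 was lower and 0 higher. RPE (14.6 and 19.0 CPM) and PGD (93.5 and 118 CPM) had the highest ratios, -0.09 and -0.14, and TALDO1 (167 and 102 CPM) and PGLS (146 and 106 CPM) the lowest, -1.18 and -0.94. Of 13 other glycolytic isozymes 2 were compared: ADPGK had 9.23 and 13.9 CPM (0.11), and BPGM, which makes bisphosphoglycerate, was lower, with 43.9 and 38.5 CPM (-0.66, or -0.19 uncentred, which is within 1.5-fold). The uncentred ratio of ADPGK, 0.59, was above 1.5-fold.

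Of 20 further HIF-induced genes, 10 were compared, with 3 lower, 0 higher and a median of -0.17 (uncentred, 2 lower and 2 higher). P4HA2, another collagen hydroxylase, had 12.4 and 23.1 CPM (0.42) and the sterol regulator INSIG2 25 and 40.1 CPM (0.20). The lower genes were the mitochondrial protein gene FAM162A, with 67.1 and 43.1 CPM (-1.11), MIR210HG, the host transcript of a hypoxia-induced microRNA, with 11.1 and 7.20 CPM (-1.10), and TMEM45A, with 13.1 and 9.55 CPM (-0.93). Of 11 HIF subunits and oxygen-sensing genes, 8 were compared, with 2 higher and 3 lower and a median of 0.18 (uncentred, 4 higher and 3 lower). The HIF partners ARNT2 (30.7 and 83.6 CPM) and ARNT (5.64 and 13.7 CPM) were higher, at 0.97 and 0.81. The 3 lower genes encode subunits of the VHL ubiquitin ligase that also serve other complexes: RBX1 had 633 and 327 CPM (-1.43), ELOB 1138 and 593 CPM (-1.42) and ELOC 185 and 109.9 CPM (-1.23). Of 13 stress genes, 10 were compared, with 1 higher and 3 lower and a median of -0.16 (uncentred, 2 higher and 1 lower). SESN2 (7.23 and 15.7 CPM, 0.64) and DNAJB1 (27.3 and 41.8 CPM, 0.14) were at the top, and EGR1 (16.0 and 9.6 CPM, -1.21) and DDIT3 (38.4 and 29.4 CPM, -0.86) at the bottom; HSPA1A was also lower (-0.76).

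The lower ratio of the enzymes lay within a wider pattern in these libraries, in which short genes and abundant transcripts had lower ratios. Of 82 ribosomal protein genes compared, 77 were lower, with a median of -1.18. Among genes under 20 kb long, 44.9% were lower, against 6.94% of genes of 100 kb and over. Among 1102 genes under 50 kb with a mean of at least 100 CPM, 61.6% were lower and the median was -0.79. The 7 enzymes of that band, ENO1, PGAM1, ENO2, TPI1, GAPDH, PKM and GPI, had a median of -1.14. The band of 50 kb and over with at least 100 CPM had a median of 0.14 over 580 genes, and HK1 was at 0.37 there. PGK1 and LDHB exceed 50 kb only through gene models that start upstream of the promoters shown above, so they are not set against that band. In the band under 50 kb and under 100 CPM the median was -0.15 over 4657 genes and -0.29 over the 5 enzymes LDHA, PFKM, ALDOA, ALDOC and PFKL. In the band of 50 kb and over and under 100 CPM it was 0.33 over 3292 genes, with PFKP at -0.24. The nuclear transcript MALAT1 had 56583 and 58255 CPM, NEAT1 29 and 166 CPM, and the MT genes together 76282 and 53359.6 CPM. The part of RNA quality, or of intronic reads, in this pattern and in the enzyme ratios was not tested.

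Cells of both libraries were clustered without the 35 genes and the related lists, giving 8 clusters that each held at least 50 cells of both labels. Cluster 1, led by CRH and STC1, was the largest, with 2469 cells labelled WT and 2352 labelled FKO. Clusters 2 to 5 were led by LRRC77P and SOX2, by SLC17A8 and CAV1, by GRIN3A and ONECUT3, and by SST and LHX9. Cluster 6 was led by COL1A1, OGN and LUM together with the cycling genes TOP2A and MKI67, cluster 7 held shallow cells with medians of 2648 and 2426 UMIs, and cluster 8 was led by UNC5B-AS1, CALCB and ATF3. Each is called by its number, since no cluster had 3 markers of a single cell type, counted from the fixed marker lists alone, among its leading genes.

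Of the 9 lower enzymes, all but LDHA were lower in each cluster. Against the all-gene median of the cluster, the enzyme median ran from -0.59 in cluster 6 to -1.21 in cluster 5. GAPDH, ENO1, TPI1, ALDOA, PGK1, PGAM1, PKM, LDHB and BNIP3 were at least 1.5-fold below that median in 8 of 8 clusters, where 22.2% (cluster 2) to 25.1% (cluster 8) of all genes were, with GAPDH between -1.91 and -1.57 and ENO1 between -2.14 and -1.26. LDHA was so in 7 of 8, the exception being cluster 6 (-0.26), where it made up 9.10% of lactate dehydrogenase UMIs in cells labelled WT and 16.5% in cells labelled FKO. Before centring, GAPDH, ENO1 and TPI1 were past 1.5-fold lower in every cluster. PKM was so only in clusters 2 (-0.67) and 8 (-0.78), and PGK1 only in clusters 1, 2, 4 and 5. ALDOA (-0.55), PGAM1 (-0.14) and BNIP3 (-0.36) fell short in cluster 6, and LDHB in cluster 2 (-0.57). LDHA fell short in clusters 4 (-0.55) and 7 (-0.57) and was above 0 in cluster 6 (0.26). Cluster 6 held different cells in the libraries: 102 of its 182 cells labelled WT had a UMI of the floor plate genes SHH or CORIN, against 49 of 329 labelled FKO, and 6 against 145 had at least 5 UMIs of COL1A1 and COL1A2. Within cluster 6, LDHA had 46.0 CPM (WT label) and 56.9 CPM (FKO label) in cells with a UMI of SHH or CORIN. In the other cells it had 111 and 97.3 CPM, the reverse order, and the intervals overlapped in both. The part of this mix in the cluster 6 values was not tested. HK1 lay above the cluster median in 8 of 8 clusters, by 0.24 to 1.16. The ENO1 share was higher in cells labelled WT in every cluster, the closest pair being cluster 6 with 90.8% and 80.9%. The BNIP3 share was higher in cells labelled WT in every cluster too, but in cluster 7 the intervals overlapped, at 48.0% (40.3 to 55.7) and 41.1% (34.2 to 48.2). HIF target medians ran from -0.40 in cluster 2 to 0.55 in cluster 6.

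Within a library, GAPDH differed by under 2-fold between clusters, while ENO2, EGLN3, P4HA1 and VEGFA differed more. GAPDH ran from 2536 CPM (cluster 7) to 3762 CPM (cluster 6) in cells labelled WT and from 993 to 1802 CPM in the same clusters of cells labelled FKO, so the ranges of the libraries did not overlap. ENO2 was lowest in cluster 6, with 80.6 and 112 CPM, against 305 and 335 CPM in cluster 1. With the WT label, cluster 6 held 352 of the 622 EGLN3 UMIs (105 CPM). With the FKO label it had the highest level, 18.2 CPM, but 71 of 292 UMIs, against 96 in cluster 1 and 66 in cluster 4. Within that cluster, cells with a UMI of SHH or CORIN had 176 CPM of EGLN3 (102 cells labelled WT) and 46.0 CPM (49 labelled FKO), and the other cells 13.6 and 10.7 CPM. P4HA1 was also highest in cluster 6, with 41.3 and 109 CPM, or 41.5 and 102 CPM in the cells with under 5 collagen UMIs. VEGFA was highest in cluster 8, with 50 CPM (40.9 to 60.6) and 98.1 CPM (79.8 to 119). The splits of cluster 6 were chosen after the values were seen.

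Cells with the largest MT shares held the fewest enzyme transcripts among their other transcripts, in both libraries. Among the kept cells, at most 10% MT, the relation differed. The correlation per cell of enzyme share and MT share was -0.20 with the WT label and -0.04 with the FKO label. In kept cells of 5000 to 15000 UMIs it was -0.20 and 0.03. In CPM of the non-MT UMIs alone (non-MT CPM), so that the MT share does not enter the denominator, the summed enzymes in the library labelled WT were 8387 in cells of up to 5% MT, then 7530.1 (5 to 7.5%), 6356 (7.5 to 10%), 5794 (10 to 15%), 5125 (15 to 20%) and 4032 (over 20%). In the library labelled FKO they were 3858, 3511, 3572, 3245, 2489 and 2037 in the same bins. The highest bin value labelled FKO was thus under the lowest labelled WT. The HIF targets were 919, 649, 492, 423, 420.3 and 371 in the library labelled WT, against 609.8, 472, 436, 425, 405 and 319 in the one labelled FKO, and above 10% MT the intervals of the libraries overlapped.

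**Figure D2:**
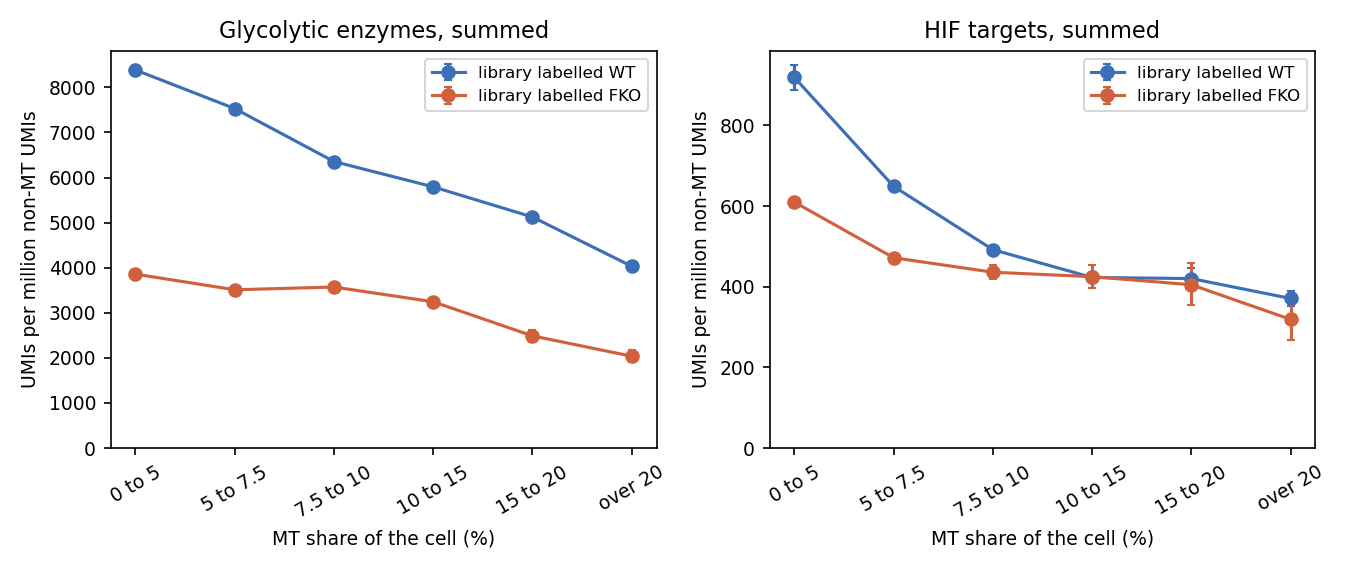
Summed non-MT CPM of the 17 enzymes (left) and the 15 HIF targets (right) in bins of the MT share of the cell, for each library, with 95% Poisson intervals. With the WT label the enzymes go from 8387 to 4032, and with the FKO label from 3858 to 2037.

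Other properties of the cells changed along the same bins. The number of cells ran from 340 to 3358 with the WT label and from 241 to 3269 with the FKO label. Median UMIs per cell were 9226.5, 13016 and 12370.5 in the first 3 bins labelled WT and 4033 over 20% MT, and they went from 6920.5 to 1983 in the library labelled FKO. MALAT1 went from 71843 to 200589.7 non-MT CPM with the WT label and from 63002 to 166502 with the FKO label, and ribosomal protein genes from 144891 to 54718 and from 70788, by way of 99488 at 7.5 to 10% MT, to 40603. The serotonergic markers summed to 2582 and 2067 non-MT CPM in the lowest and highest bin labelled WT, with 3554 at 10 to 15% MT, and 2727 and 1499 in those labelled FKO. The part of depth and of these transcripts in the enzyme trend was not tested. Cell mix also shifted, and within cluster 1 alone the enzymes were 10487, 8031 and 6733 non-MT CPM in the first 3 bins labelled WT and 4145, 3801 and 3697 in those labelled FKO. The HIF targets there were 1232, 684 and 505, and 647, 483 and 405.

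The members were not alike along the MT share. ENO1 went from 1244 non-MT CPM in the lowest bin labelled WT to 474 at 10 to 15% MT, and BNIP3 from 405 to 133, while ENO2 went only from 323 to 279. In the library labelled FKO, ENO1 went from 376 to 266, BNIP3 from 145 to 62.0 and ENO2 from 331 to 223 over the same bins. For a call, cells with over 10% and up to 20% MT were compared with cells at or under 10%, against the all-gene median. In the library labelled WT, 2 of 16 enzymes were lower and 0 higher, ENO1 (824 and 479 non-MT CPM, -0.78) and ALDOC (12.3 and 8.16, -0.60), where 0.393% of all genes were lower and 0.509% higher. ALDOC, SLC16A3 and VEGFA were compared here only because they reached 10 non-MT CPM in the cells at or under 10% MT, the side on which they were high. Of 9 HIF targets compared there, 3 were lower and 0 higher: SLC16A3 (11.6 and 6.15, -0.92), BNIP3 (224 and 130.4, -0.78) and VEGFA (11.8 and 7.71, -0.62). The medians were -0.38 for the enzymes and -0.30 for the HIF targets. The direction was not the same over the whole range for SLC16A3, which had 4.85 non-MT CPM at 10 to 15% MT but 16.0 at 15 to 20% and 17.1 over 20%, or for VEGFA, which had 6.97, 13.4 and 9.55.

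In the library labelled FKO, which had 730 cells with over 10% and up to 20% MT against 2499 labelled WT, 1 of 15 enzymes was lower and 0 higher, PGAM1 (96.2 and 63.6 non-MT CPM, -0.66), where 7.1% of all genes were lower and 9.98% higher. Of 10 HIF targets compared, 3 were lower: BNIP3 (118 and 58.5, -1.07), PFKFB3 (18.3 and 10.7, -0.84, on 27 UMIs above 10% MT) and BNIP3L (238 and 157, -0.66). In cells with a TPH2 UMI only BNIP3 of these (-0.73) was past 1.5-fold, with PFKFB3 at -0.45 on 11 UMIs and BNIP3L at -0.48. Another 2 were higher: VEGFA, with 20.6 non-MT CPM at or under 10% MT and 39.1 above, a centred ratio of 0.86, and P4HA1, with 22.4 and 37.5 (0.68). The call of P4HA1 was lost in cells with under 5 UMIs of COL1A1 and COL1A2 (0.41) and in cells with a TPH2 UMI (-0.23), whereas that of VEGFA was kept in both (0.91 and 1.24). SLC16A1 was higher as well (13.3 and 24.1, 0.80). The medians were -0.36 for the enzymes and -0.03 for the HIF targets. These genes were low, with 99 UMIs of VEGFA and 95 of P4HA1 in the cells above 10%.

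**Figure D3:**
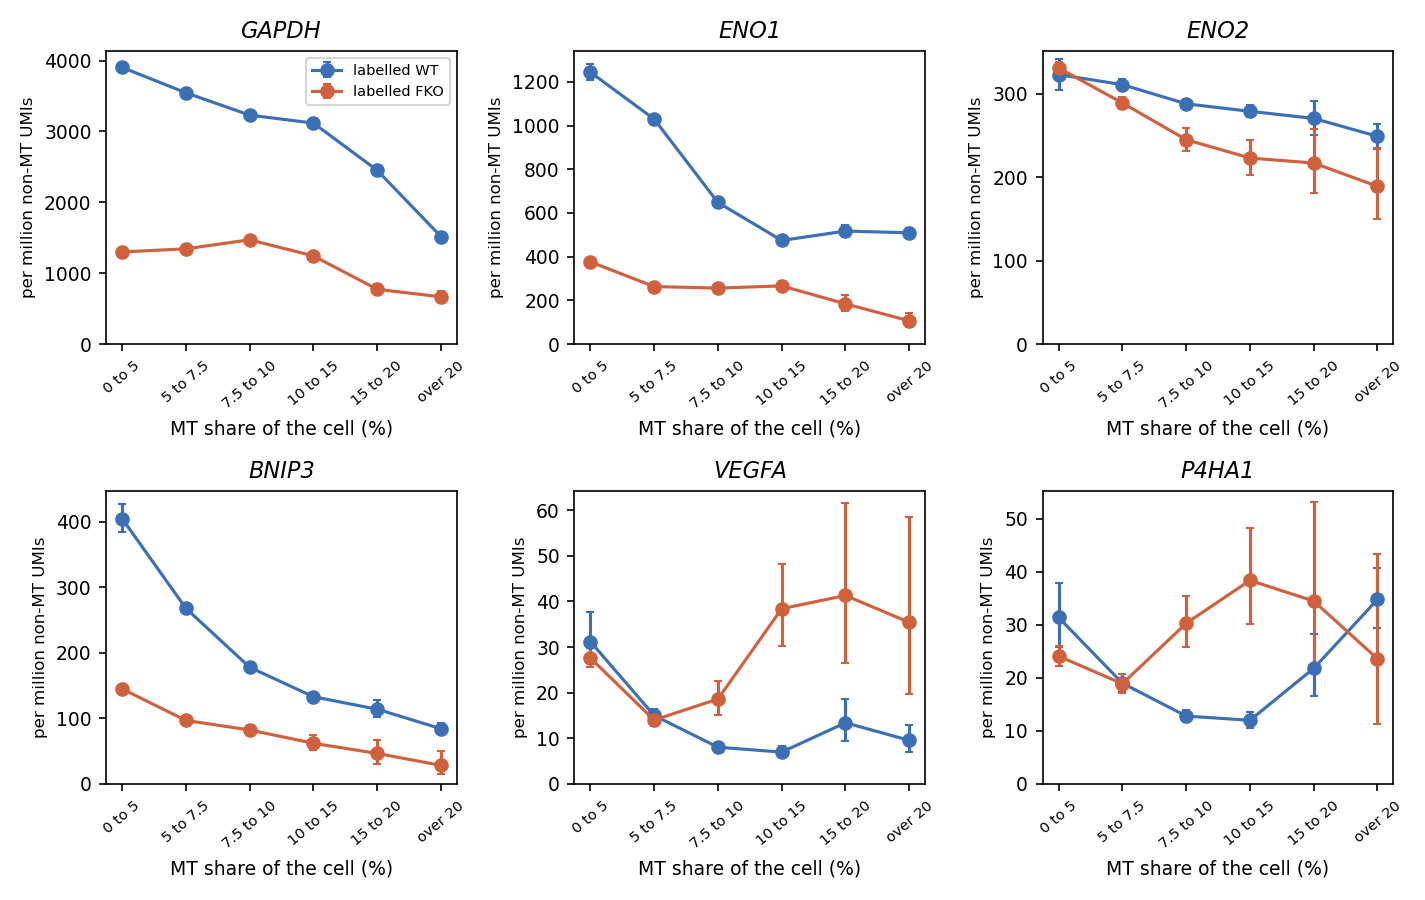
Non-MT CPM of 6 members in bins of the MT share of the cell, for each library, with 95% Poisson intervals. ENO1 and BNIP3 are highest in the lowest bin of both libraries, whereas VEGFA labelled FKO is 27.6 in the lowest bin, 14.0 at 5 to 7.5% MT and 38.4 at 10 to 15%.

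The relation to the MT share bears on the comparison of the libraries, since the cells labelled WT had the larger MT shares. Within bins, the enzyme median less that of all genes was -1.30, -1.22, -0.98, -0.88, -0.95 and -1.04 from the lowest to the highest MT share, and 10 or 11 of 16 enzymes were lower in each, where 21.3% to 27.6% of all genes were lower. The HIF target median was -0.58, -0.44, 0.08, 0.10, 0.28 and -0.65, with 5, 3, 2, 2, 5 and 6 of 11 lower, where the share of all genes was 26.3%, 23.4%, 21.3%, 26.7%, 27.6% and 27.5%. Above 15% MT some ratios rested on few UMIs labelled FKO. At 15 to 20% and over 20% MT, SLC16A3 had 4 and 1, PFKFB3 3 and 7, EGLN1 7 and 4, and ALDOA 4 and 2. Calls of such genes there are uncertain. The summed enzymes had uncentred ratios of -1.04 (-1.12 to -0.96) and -0.99 (-1.09 to -0.89) in these bins. The enzyme difference was thus present at every MT share. The HIF target median was below that of all genes in some ranges of MT share and above it in others, also when only bins up to 15% MT are read.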

How the data were processed

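The counts are the UMIs per gene and cell that the authors deposited, made with Cell Ranger on GRCh38 (version 7.0 per the submitters' processing notes, 7.1.0 per the file headers); whether intronic reads were counted was not stated in the sources used. Doublets were the highest Scrublet scores (scanpy 1.11.5), 0.8% per 1000 deposited barcodes. UMIs of kept cells were pooled per library and scaled to CPM with numpy 2.4.6, pandas 2.3.3 and scipy 1.17.1. Kept cells were integrated by CCA and clustered in Seurat 5.3.0 (R 4.3.3) on 2000 variable genes, 30 dimensions and a resolution of 0.2; cluster membership also varied slightly with the linear algebra library's settings, which were fixed. Gene lengths came from GENCODE 29. Members with at least 10 CPM in either library are named with values, and from each other list the 2 highest and 2 lowest ratios. The members and lists were chosen with earlier results of these data known. The ratio step was tested on simulated counts. Alternatives changed the MT limit, doublets, cell minimum, denominator, pooling, depth, cells, gene filter and resolution.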

Additional observations from a re-analysis of the deposited data

Results flagged for a closer look

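The HIF target VEGFA went opposite ways in the libraries, and P4HA1 was called in 1 of them only, when cells with over 10% and up to 20% MT UMIs were compared with cells at or under 10%. VEGFA had a centred log2 ratio of -0.62 in the library labelled WT, against 0.86 in the one labelled FKO, and P4HA1 had -0.30, which is within 1.5-fold, and 0.68. VEGFA in the library labelled WT reached the level for comparison only in the cells at or under 10%. The difference between the libraries was not tested. In the library labelled WT, cells at or under 10% MT had 11.8 (VEGFA) and 16.1 (P4HA1) CPM of non-MT UMIs. Within these cells the levels went from 31.2 and 31.4 up to 5% MT to 8.04 and 12.8 at 7.5 to 10%. At 10 to 15% MT the WT levels were 6.97 and 12.0, with intervals overlapping those at 7.5 to 10%. The negative WT ratios thus rest on the higher levels in the cells with the lowest MT shares. At 15 to 20% the WT levels were 13.4 and 21.8, and over 20% 9.55 and 34.8. In cells with a TPH2 UMI, VEGFA had -0.86 and 1.24, whereas P4HA1 had -0.34 in the library labelled WT, against -0.23 in the one labelled FKO, the latter on 13 UMIs in the cells above 10%. In cells with under 5 UMIs of COL1A1 and COL1A2, which was 6827 of the 6978 kept cells labelled FKO, VEGFA had 0.91 and P4HA1 0.41 in the library labelled FKO. Cells with at least 5 of these collagen UMIs made up 1.39% of cells labelled FKO in the lowest MT bin and 5.52% at 10 to 15% MT, and at most 0.588% of cells labelled WT in any bin. Between the same bins labelled FKO the astrocyte markers, led by S100B, went from 17.1 to 279 CPM of non-MT UMIs (3 of 4 detected in each, GFAP at 0), the oligodendrocyte lineage markers, led by SOX10, from 8.23 to 65.1 (4 of 4), and the mesenchymal markers from 203 to 207 (6 of 6). The part of these cells in the result was not tested. The collagen limit was chosen after seeing the data.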

How the results depend on the processing

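Leaving out a replicate was not possible, with 1 library per label. No paired analysis was possible because the labels give no replicate numbers. The enzyme median (main -1.06) was -1.22 at most 5% MT, -0.98 at most 20%, -0.95 with no MT limit, -0.99 in cells with a TPH2 UMI and -1.13 with a gene filter of 1 CPM. The summed enzymes (main -0.87) were -1.12, -0.81 and -0.78 under those MT limits, -0.86 with doublets kept, -0.91 per non-MT UMIs and likewise -0.91 with cells thinned to 2000 UMIs, -0.92 as the mean over cells, -0.84 in cells with a TPH2 UMI, -0.85 with clusters weighted equally and -0.56 without GAPDH. Between 9 and 11 enzymes, HK2 (-0.87) included at most 5% MT, were at least 1.5-fold lower under every alternative run, and the same 9 (ALDOA, TPI1, GAPDH, PGK1, PGAM1, ENO1, PKM, LDHA and LDHB) were lower in all 15 settings. The HIF target median (main 0.07) was -0.61 at most 5% MT, where 6 targets were lower in place of 2 (5 and -0.57 without EGLN3, which the main setting left out), and -0.11 with thinned cells. At most 20% MT and with no MT limit 1 target was called lower, since SLC16A3 no longer reached 10 CPM while its ratio was -1.10 and -1.14 (main -1.29). With clusters weighted equally 1 target was higher in place of 0, and 3 were lower in place of 2, with EGLN3 added. A gene filter of 1 CPM also gave 3 lower, with EGLN3 and NDRG1 added. Further alternatives were chosen after seeing the data. With 5 to 7.5% MT in both libraries the enzyme median was -1.22, the HIF median -0.48 (PFKFB4 no longer reached 10 CPM) and the summed enzymes -1.09. With 5000 to 15000 UMIs in both, the HIF median was -0.09 and the summed enzymes -0.89, which was also their value in clusters 1 to 5 only. Shares in the library labelled WT with no MT limit were 71.5% for ENO1, 48.7% for BNIP3, 4.41% for HK2, 10.8% for LDHA, 35.9% for PFKP and 48.0% for PFKM. In cells with a TPH2 UMI they were 72.7% for ENO1, 49.8% for BNIP3, 64.7% for ALDOA and 47.7% for PFKM labelled WT, and 49.1% for ENO1, 33.9% for ALDOA, 4.74% for HK2, 11.9% for LDHA and 38.0% for PFKP labelled FKO. With doublets kept, ENO1 was 72.9% and BNIP3 49.7% labelled WT. The cause of these shifts was not tested. Of single genes, VEGFA ran from -0.65 to 0.57, P4HA1 from -0.86 to 0.19 and PFKP from -0.79 to -0.06 over the settings. SLC16A3 ran from -2.78, with 5 to 7.5% MT in both libraries, to -0.96, in cells with a TPH2 UMI. PDK1 ran from -0.57 to 0.18 and ALDOC from -0.68 to 0.36. At most 5% MT, HK1 (0.66) was past 1.5-fold higher and SLC2A1 (-0.65), VEGFA (-0.65), ALDOC (-0.68), SLC16A1 (-0.68) and P4HA1 (-0.86) past 1.5-fold lower, as were SLC2A1 (-0.81) and PFKP (-0.79) with 5 to 7.5% MT in both. The MT contrasts of the enzymes and HIF targets, taken as lists, stayed within counting error under all 6 alternatives, and the cluster result at both other resolutions. Single HIF targets did not all do so. In cells with a TPH2 UMI labelled FKO, P4HA1 went from 0.68 to -0.23, and the calls of PFKFB3 (-0.45) and BNIP3L (-0.48) were lost.

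With 1 library per label and 1 clone, no difference can be set against a spread between cultures. Genes under 10 CPM in both libraries over all kept cells, among them CA9, ADM, NDRG1, HK2 and EGLN3, fell under the level set for a comparison with all genes. RNA levels give neither enzyme activity nor oxygen tension, which were not measured.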

Other observations

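Cells with little MT RNA differed from those nearer the limit. The 340 cells labelled WT of up to 5% MT had 29.7 (SLC16A3), 31.2 (VEGFA) and 31.4 (P4HA1) CPM of the non-MT UMIs alone (non-MT CPM), against 7.02, 8.04 and 12.8 in the 3358 cells of 7.5 to 10% MT. In the library labelled FKO the same bins had 10.5 against 2.84 (SLC16A3), 27.6 against 18.6 (VEGFA) and 24.1 against 30.3 (P4HA1). Of the 340 cells labelled WT, 85 belonged to cluster 1, 49 to cluster 8 and 41 to cluster 6 (14.4% and 12.1% for the latter pair), where clusters 8 and 6 held 2.87% and 3.17% of all kept cells labelled WT. Cycling markers summed to 180.1 non-MT CPM in the lowest bin labelled WT and 46.2 at 7.5 to 10% MT, and neural progenitor markers, led by VIM, to 1899.7 and 907. In the library labelled FKO the cycling markers summed to 66.7 and 114 and the progenitor markers to 1098 and 1905 in the same bins, the reverse order. The difference between the libraries was not tested.

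Some genes of the related lists had most of their few UMIs in 1 library. The liver-type pyruvate kinase gene PKLR had 4 UMIs in the library labelled WT, against 76 in the one labelled FKO, an uncentred log2 ratio of 4.66 (3.24 to 6.57). EPAS1, the endothelial HIF alpha subunit, had 0 UMIs in the library labelled WT, against 3 in the one labelled FKO. PPFIA4 had 139 and 384 UMIs, a ratio of 1.87 (1.59 to 2.16). Others ran the opposite way: PGAM2 had 82 and 25 UMIs, a ratio of -1.31 (-2.01 to -0.65), and GAPDHS 86 and 34, a ratio of -0.93 (-1.55 to -0.34). All were under 10 CPM in both libraries and were named after their values were seen.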
